A study of Mus musculus with 8 samples.

Results

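Activity-regulated immediate early genes were followed in mouse striatum through 10 genes: Fos, Fosb, Junb, Egr1, Egr2, Arc, Dusp1, Nr4a1, Nr4a2 and Nr4a3. The members were the probes that carried one of these symbols and were detected, with a detection p under 0.05, on at least 4 of the 8 arrays. That left 8 of 12 probes, 1 for each of 8 genes, among the 13413 probes of 10008 genes kept in the whole series. All 8 were detected on every array, so none passed through one group alone. The probe of Nr4a1 and the 3 probes of Nr4a3 were detected on 0 of 8 arrays; their lowest detection p was 0.0977 for Nr4a1 and 0.109 for Nr4a3, and no fold is given for them.

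The arrays came from C57BL/6 mice at postnatal day 30, 4 labelled PGC-1α null and 4 labelled PGC-1α wild type; PGC-1α, encoded by Ppargc1a, is a coactivator that drives genes of mitochondrial metabolism. The sample labels name a null strain and medium spiny neurons, while the series title describes a deletion restricted to those neurons, and the RNA came from striatal tissue with all its cells; no Cre line or promoter is given in the sources used here. The comparison asks which striatal transcripts differ when PGC-1α is missing. Y-linked transcripts, given below, were high on more null than wild-type arrays, so the sexes were not balanced between the groups. The labels do not say that the 4 samples of a group were separate animals, so p-values here reflect only how these samples scatter, and some of that scatter may be technical. The 8 arrays lay on 1 chip, with each group in its own run of 4 positions, so a position effect and a group effect cannot be told apart. Ppargc1a's own probe, whose place relative to the deletion is not given and which may therefore check nothing, averaged 7.73 ± 0.43 in null and 7.61 ± 0.38 in wild-type arrays (log2, SD, n = 4 each; difference 0.12, SE 0.23, limma adjusted p = 0.94).

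Immediate early genes are switched on within minutes of a synaptic or growth factor stimulus, without new protein synthesis, by kinases that act on factors already bound at their promoters, above all CREB at cyclic AMP response elements and serum response factor at CArG boxes. Fos, Fosb and Junb encode subunits of the AP-1 transcription factor, Egr1 and Egr2 zinc finger factors, Arc a synaptic protein that governs AMPA receptor uptake, and Dusp1 a phosphatase that ends MAP kinase signalling. Nr4a1, Nr4a2 and Nr4a3 encode orphan nuclear receptors. In medium spiny neurons these genes respond to dopamine and glutamate input, and they are common read-outs of recent activity. Nr4a2 (Nurr1) is also a constitutive factor of midbrain dopamine neurons and marks neurons of the claustrum and deep cortex.

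The promoters show what these genes share in sequence. RefSeq promoter windows (GRCm38.p6) matched 8 of the 10 members. Arc and Egr1 had no window, while Nr4a1 and Nr4a3, not detected on the arrays, had one. These 8 are therefore not the 8 measured genes. The core of the cyclic AMP response element, TGACG on either strand, stood within the 250 bases before a gene start of all 8, against 19.8% of the 27025 genes in the table. The full element TGACGTCA, which contains the core on both strands, was found in 1 of the 8 (Dusp1), against 1.77% of genes. A CArG box was found in 1 of the 8 (Egr2), against 1.62% of genes. The letters of the Nr4a response element AAAGGTCA were in 0 of the 8 windows, against 1.55% of genes. A match is only a run of letters, and no binding was measured. The windows of Fos, Junb and Dusp1 are shown because these genes kept nearly the same order over the arrays, and that of Nr4a2 because it did not; each ends at the base before the gene start, reads 5′ to 3′, and has the core in capitals, on either strand.
Fos, chr12:85473640-85473889, plus strand: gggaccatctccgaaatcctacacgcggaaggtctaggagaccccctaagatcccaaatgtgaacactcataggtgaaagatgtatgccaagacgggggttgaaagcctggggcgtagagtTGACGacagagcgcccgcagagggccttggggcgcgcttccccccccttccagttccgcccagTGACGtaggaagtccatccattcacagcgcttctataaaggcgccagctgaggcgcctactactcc
Junb, chr8:84978749-84978998, minus strand: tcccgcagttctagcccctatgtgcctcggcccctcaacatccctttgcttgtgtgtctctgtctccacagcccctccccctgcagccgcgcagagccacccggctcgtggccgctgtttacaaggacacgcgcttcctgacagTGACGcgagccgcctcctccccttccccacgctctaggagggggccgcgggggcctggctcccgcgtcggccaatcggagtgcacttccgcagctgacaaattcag
Dusp1, chr17:26508473-26508722, minus strand: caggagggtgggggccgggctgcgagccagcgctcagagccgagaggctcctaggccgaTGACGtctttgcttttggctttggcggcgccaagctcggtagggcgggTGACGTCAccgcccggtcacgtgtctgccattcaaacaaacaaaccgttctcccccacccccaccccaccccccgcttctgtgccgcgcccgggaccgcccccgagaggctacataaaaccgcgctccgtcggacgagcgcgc
Nr4a2, chr2:57124004-57124253, minus strand: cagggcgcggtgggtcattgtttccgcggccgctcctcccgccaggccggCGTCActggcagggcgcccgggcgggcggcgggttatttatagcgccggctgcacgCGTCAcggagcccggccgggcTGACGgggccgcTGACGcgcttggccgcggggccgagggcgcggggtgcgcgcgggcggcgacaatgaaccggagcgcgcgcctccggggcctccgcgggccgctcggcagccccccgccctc
Egr2 has several annotated starts, and the CArG box before an upstream start, not shown, has no core in its window. The short site below joins a different CArG box, the first capitals, to a core on the opposite strand, the last capitals.
Egr2, chr10:67537797-67537818, plus strand: CCATATATGGgcagcgaCGTCA

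Of the 8 measured genes, 7 were lower and Nr4a2 alone was higher in null arrays, and 0 of 8 passed the threshold. Over all kept probes, 0% passed in either direction with limma and Benjamini-Hochberg adjustment (lowest adjusted p = 0.592), and the adjusted p of the members ran from 0.698 to 0.873. At an unadjusted p under 0.05, 2 members were lower (Fosb and Dusp1) and 1 was higher (Nr4a2), against 6.9% of all kept probes in either direction, 3.7% lower and 3.21% higher. The median difference over the 8 probes was -0.52 on the log2 scale, against -0.004 over all kept probes, of which 50.9% were lower. The groups overlapped for all 8 members. Groups without overlap were also uncommon over all kept probes, at 4.14% (2.59% with null below wild-type, 1.54% with null above). Values below are log2 intensities after background correction and quantile normalization; each compares arrays for 1 probe, and levels of different probes are not set against each other. In tissue, fewer cells of a type and less RNA per cell cannot be told apart.

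Fos and its AP-1 partners come first. Fos read 7.38, 6.67, 8.06 and 7.28 on null arrays 1 to 4, against 9.05, 8.01, 6.86 and 8.56 on wild-type arrays 1 to 4. Wild-type arrays 1 and 4 lay above all null arrays, while wild-type array 3 lay below 3 of the null arrays. The means were 7.35 ± 0.57 in null and 8.12 ± 0.94 in wild-type arrays (SD, n = 4 each), a difference of -0.77 (SE 0.41, 0.585-fold, 95% interval -1.66 to 0.11, limma adjusted p = 0.748).

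Junb, which dimerizes with Fos, read 8.01, 7.18, 8.71 and 8.05 on the null arrays, against 9.26, 8.52, 7.67 and 9.20 on the wild-type arrays. The same 2 wild-type arrays were highest, and null array 2 and wild-type array 3 were again the lowest. Its difference was -0.68 (SE 0.36, 0.625-fold, 95% interval -1.47 to 0.11). Fosb, whose ΔFosB splice form accumulates in striatum under repeated stimulation, ranged over 0.98 log2 units across the 8 arrays, against 2.38 for Fos. It read 5.03, 5.21, 5.35 and 5.42 on the null arrays, against 6.01, 5.25, 5.78 and 5.92 on the wild-type arrays. Of the wild-type arrays, 3 lay above all null arrays and only wild-type array 2 lay among them. The difference was -0.48 (SE 0.17, 0.715-fold, 95% interval -0.86 to -0.11, limma adjusted p = 0.698), and the probe does not tell the splice forms apart from these data. The Fosb probe lay close to background (detection p of up to 0.0238), and without background correction its difference was -0.17.

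**Figure D1:**
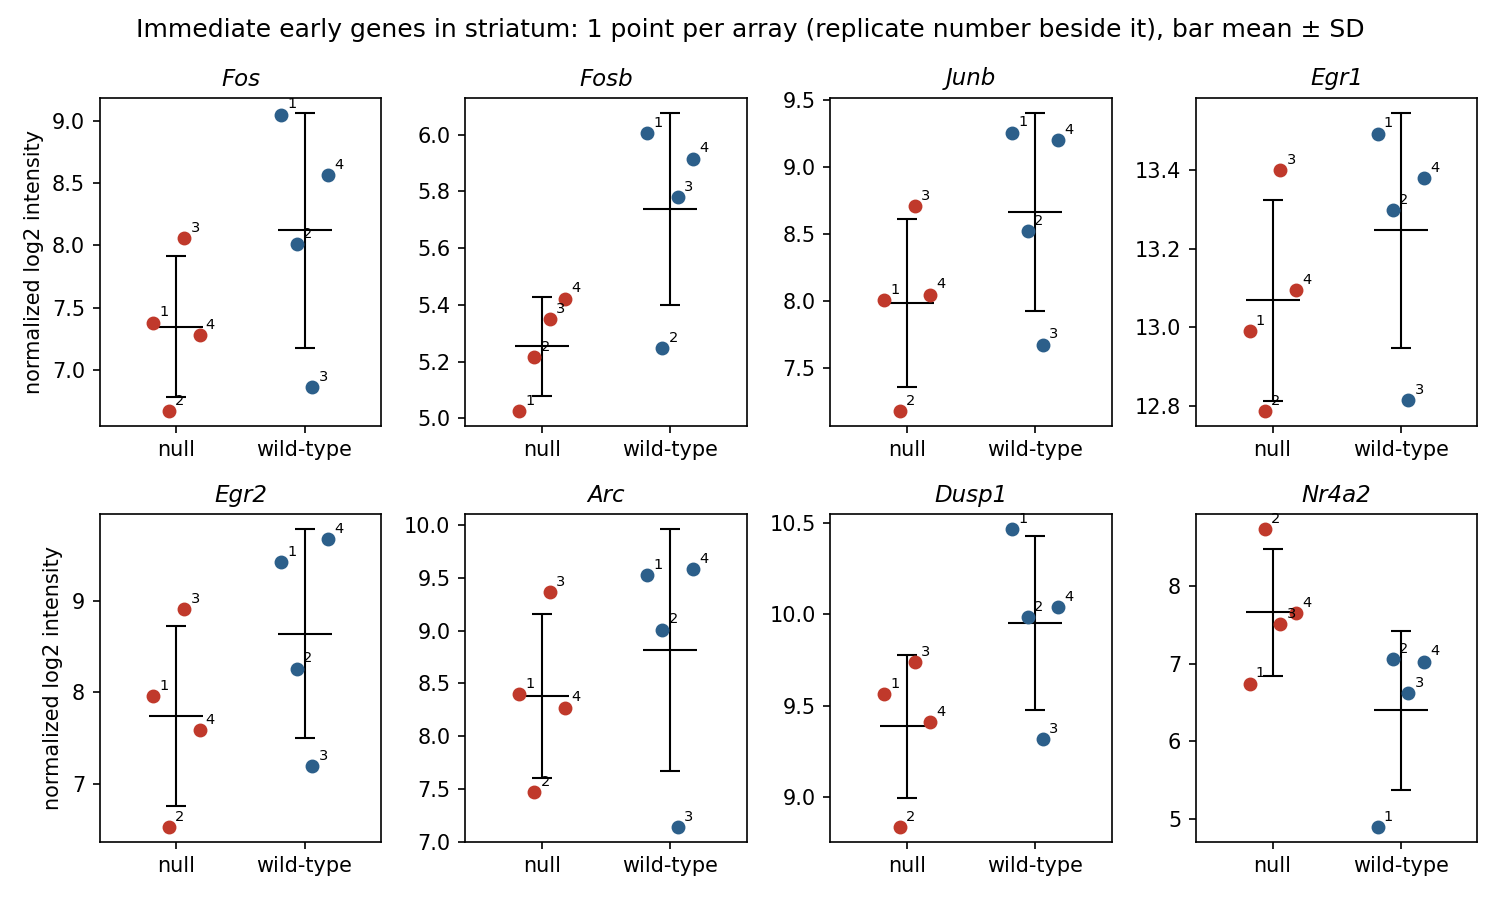
Normalized log2 intensity (vertical axis) of the 8 measured immediate early genes on each array, null left and wild-type right, with the replicate number beside each point and a bar for the mean ± SD (n = 4 each). The groups overlap for every gene; for Fos, Junb, Egr1, Egr2, Arc and Dusp1 null array 2 is the lowest of its group and wild-type array 3 the lowest of its own, while for Nr4a2 null array 2 is the highest of all 8 arrays.

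The zinc finger factors differed in how far they ranged. Egr1, a factor with high basal expression in striatum, read 12.99, 12.79, 13.40 and 13.09 on null arrays, against 13.49, 13.30, 12.81 and 13.38 on wild-type arrays. It ranged over 0.70 log2 units across the 8 arrays, and its difference was -0.18 (SE 0.17, 0.884-fold, 95% interval -0.56 to 0.20). Egr2 read 7.96, 6.53, 8.91 and 7.59 on null arrays, against 9.43, 8.26, 7.20 and 9.68 on wild-type arrays. Egr2 ranged over 3.15 log2 units and had the lowest difference of the 8, -0.89 (SE 0.55, 0.538-fold, 95% interval -2.10 to 0.31). Each group held high and low arrays of Egr2, and the interval spans 0.

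Arc, the synaptic effector of the set, read 8.40, 7.47, 9.37 and 8.27 on null arrays, against 9.53, 9.01, 7.14 and 9.58 on wild-type arrays. Its lowest array was wild-type array 3, and its difference was -0.44 (SE 0.51, 0.738-fold, 95% interval -1.54 to 0.67). Dusp1 read 9.56, 8.84, 9.74 and 9.41 on null arrays, against 10.46, 9.98, 9.32 and 10.04 on wild-type arrays. For Dusp1, 3 wild-type arrays lay above all null arrays and wild-type array 3 lay among the null ones. The difference was -0.56 (SE 0.24, 0.677-fold, 95% interval -1.09 to -0.03, limma adjusted p = 0.707).

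**Figure D2:**
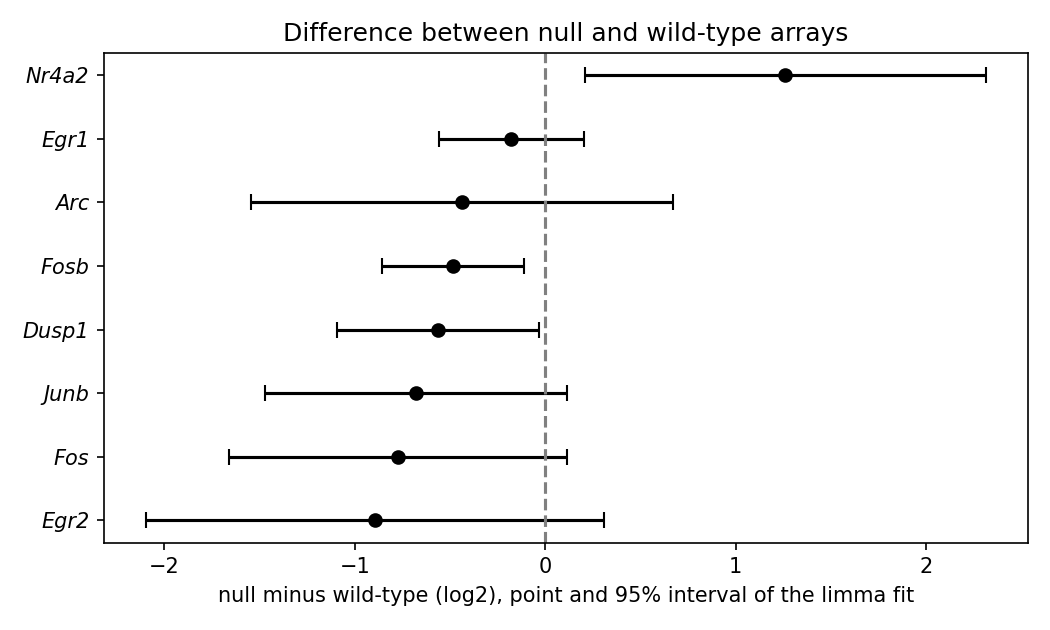
Null minus wild-type difference on the log2 scale (horizontal axis) for the 8 measured genes, as points with the 95% interval of the limma fit over 4 arrays a group. The intervals of Fosb, Dusp1 and Nr4a2 leave out 0 before adjustment; the other 5 span it, and 0 of 8 genes passed after adjustment over all probes.

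Arrays of the same group differed widely in these genes. The residual standard deviation within groups was larger for Fos than for 99.6% of kept probes, for Junb than for 99.4%, for Egr2 than for 99.9%, for Arc than for 99.8% and for Nr4a2 than for 99.8%. It stood above that of 96.1% of probes for Dusp1, 74.9% for Egr1 and 72.4% for Fosb. The median residual standard deviation was 0.73 over the 8 members, against 0.21 over all kept probes. The standard errors followed, with a median of 0.38 for the members and 0.15 over all kept probes.

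The arrays were ranked nearly alike by Fos, Junb, Egr1, Egr2, Arc and Dusp1. The null arrays deviated from the 8-array mean of Fos by -0.35, -1.06, 0.32 and -0.45, and the wild-type arrays by 1.31, 0.28, -0.87 and 0.83. The same signs on the same arrays were seen for the other 5 genes. Over the 8 arrays, Pearson's r with Fos was 0.979 for Junb, 0.963 for Dusp1, 0.957 for Egr2, 0.956 for Egr1 and 0.936 for Arc. Spearman's rho was 0.976, 0.976, 0.976, 0.952 and 0.952 for the same genes in that order. Each of these 5 had an exact permutation p of 0.0013 or lower for r and 0.0011 for rho at most, with adjusted values over 8 relations of up to 0.0021 and 0.0018. The 8 relations were chosen after the values were seen, so these p-values are descriptive only. Without wild-type array 1 and null array 2, the arrays farthest from the median of Fos, r stayed between 0.939 (Egr1) and 0.990 (Junb). With each group centred on its own mean, r was 0.948 to 0.972, so the shared order was present within the groups. Fosb gave r = 0.551 and rho = 0.548 (exact permutation p of 0.157 and 0.171, adjusted 0.157 and 0.195), and r = 0.165 without those 2 arrays. Its probe had a detection p of up to 0.0238; apart from Nr4a2, the other members had one of 0 on every array.

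**Figure D3:**
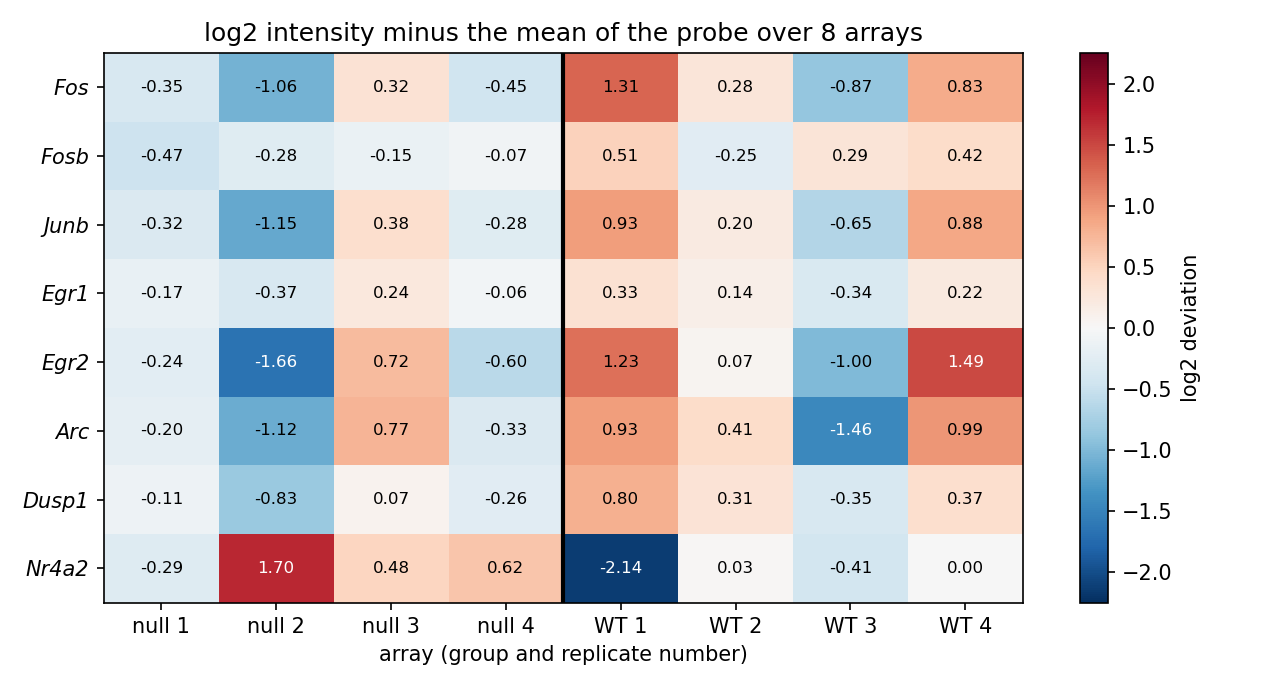
Log2 intensity of each measured gene (rows) on each array (columns, null left of the line, wild-type right) minus the mean of that probe over the 8 arrays, in red above and blue below. Fos, Junb, Egr1, Egr2, Arc and Dusp1 are high on wild-type arrays 1 and 4 and null array 3 and low on null array 2 and wild-type array 3; Nr4a2 reads -2.14 on wild-type array 1 and 1.70 on null array 2.

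Set against the other genes with a kept probe, Junb, Dusp1, Egr2, Egr1 and Arc were among the nearest to Fos. Of 10007 other genes with a kept probe, Junb, Dusp1, Egr2 and Egr1 ranked 1, 2, 3 and 4 by Pearson correlation with Fos over the 8 arrays, and Arc ranked 6. The gene in between was Lcmt1, which encodes a methyltransferase of protein phosphatase 2A (r = 0.955). With each group centred on its own mean, Junb ranked 2, Arc 3, Egr1 5, Dusp1 6 and Egr2 8. Rank 1 then went to a gene outside the members. Only 8 of the 10007 genes had r above 0.9, 0.0799% of them, and 5 of these 8 were members. This is a description over 8 arrays that share tissue, chip and normalization. Fosb ranked 602. Outside the members, the closest of the other rapid activity-regulated genes were Egr4, a further zinc finger factor of the family, at r = 0.899 (rank 10) and the clock gene Per1 at r = 0.862 (rank 21).

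Nr4a2 stood in the opposite direction. It read 6.74, 8.73, 7.51 and 7.65 on null arrays, against 4.89, 7.06, 6.62 and 7.03 on wild-type arrays. As raw bead intensities these were 211, 689, 244 and 218, against 129, 187, 209 and 172. Of the null arrays, 3 lay above all wild-type arrays, and null array 1 lay among them. The mean was 7.66 ± 0.82 in null and 6.40 ± 1.02 in wild-type arrays (SD, n = 4 each), a difference of 1.26 (SE 0.48, 2.39-fold, 95% interval 0.21 to 2.31, limma adjusted p = 0.705). Its lowest value, on wild-type array 1, was close to background (detection p of 0.0313), and without background correction the difference was 0.71. Only 4 of the 13413 kept probes had a larger positive difference, and these included Nrn1 (1.67), Slc17a7 (1.54) and Cck (1.34). Those genes also followed Nr4a2 over the 8 arrays, with r of 0.894, 0.945 and 0.946 in that order. The 2 extreme arrays carried much of the Nr4a2 difference. It was 0.89 without null array 2, 0.76 without wild-type array 1 and 0.40 (limma adjusted p = 0.81) without both. The setting without both was chosen after the values were seen. Over 18 alternative settings the adjusted p of Nr4a2 ran from 0.518 to 0.970.

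Within each array Nr4a2 can be set against its fellow members. Nr4a2 minus the mean of the other 7 measured genes was -1.73, 0.92, -1.57 and -0.79 on the null arrays, against -4.71, -1.85, -1.49 and -2.45 on the wild-type arrays. The means were -0.79 ± 1.21 in null and -2.63 ± 1.45 in wild-type arrays (SD, n = 4 each), 1.83 apart, and the groups overlapped. Only differences between arrays have meaning in this quantity, since probes of different genes are not on a common scale, and no test was made of a score over chosen members. The gap was 1.13 without wild-type array 1, 1.25 without null array 2 and 0.56 without both. Nr4a2 had a negative correlation with all 7 other members over the 8 arrays, from -0.80 to -0.43. With Fos it was r = -0.676 and rho = -0.476 (exact permutation p of 0.0589 and 0.243, adjusted 0.0673 and 0.243), and r turned to 0.276 without wild-type array 1 and null array 2, so it rests on those 2 arrays.

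The genes nearest to Nr4a2 over the 8 arrays were Dgkz, a diacylglycerol kinase (r = 0.970), Ppfia3, a synaptic liprin (0.959), Lypd6b (0.958), the chromatin organizer gene Satb1 (0.951) and the neuropeptide gene Cck (0.946). Slc17a7, which loads glutamate into vesicles of cortical neurons, ranked 7 of 10007, and Bdnf, which encodes a neurotrophin made by cortical neurons and delivered to striatum, ranked 13. Slc17a7 read 8.65, 10.46, 8.11 and 8.89 on null arrays, against 4.97, 8.53, 7.66 and 8.80 on wild-type arrays, with its extremes on the arrays where Nr4a2 had its own. Of 11 listed markers of cortical excitatory neurons, 6 had a kept probe; Neurod6 and Neurod1 were detected on 0 arrays. All 6 were higher in null arrays (median 0.52) and 0 passed; their mean deviation ran from -0.31 to 1.13 in null and from -1.15 to 0.19 in wild-type arrays. Nr4a2 followed this score with r = 0.906 and rho = 0.786 (exact permutation p of 0.0105 and 0.0279, adjusted 0.0140 and 0.0372 over 8 relations chosen after the values were seen). Without wild-type array 1 and null array 2 r was 0.274, so this relation too rests on those 2 arrays. With the score as a covariate the difference in Nr4a2 was 0.39 (adjusted p = 0.92). The other members moved as well under that covariate: Fos differed by -0.33, Egr2 by -0.33 and Arc by -0.04, the median of the 8 was -0.28, and Nr4a2 minus the mean of the others was 0.62.

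**Figure D4:**
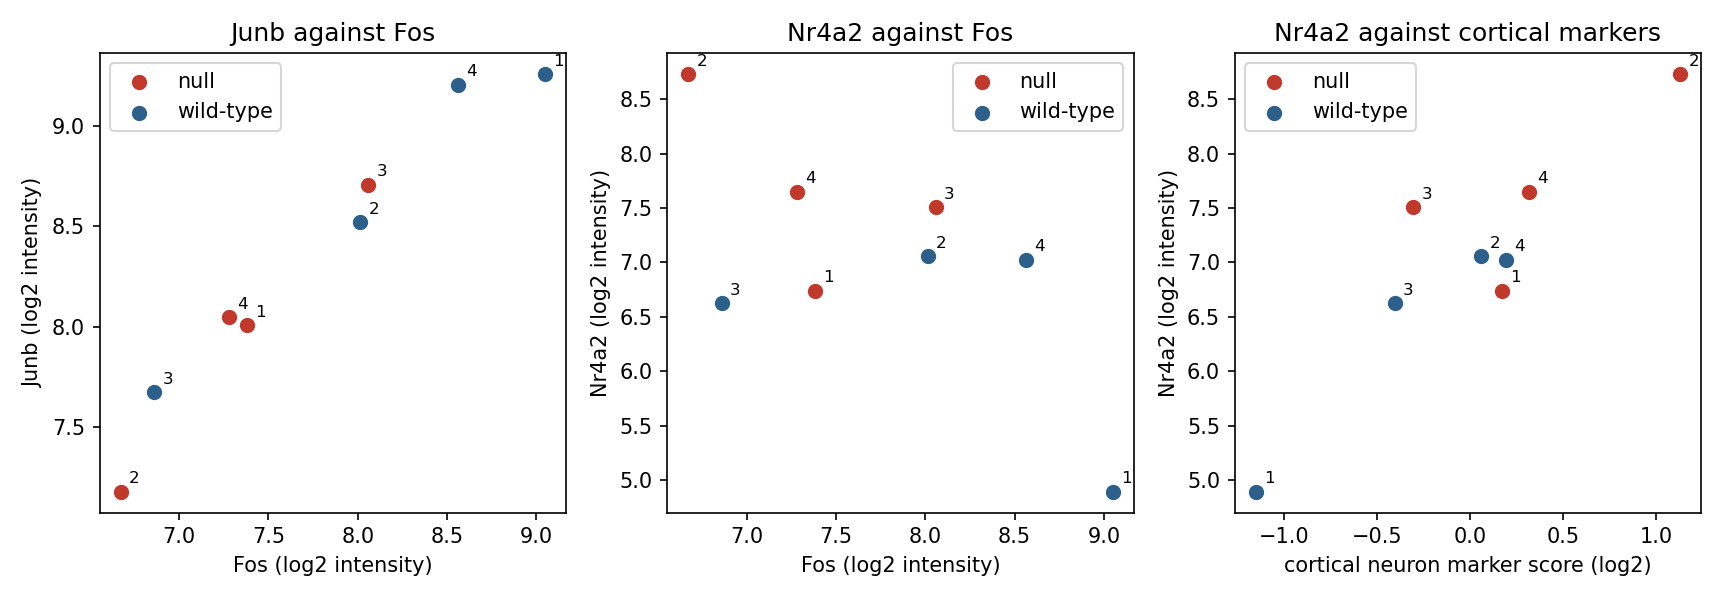
Scatter plots with 1 point per array and its replicate number: Junb against Fos, Nr4a2 against Fos, and Nr4a2 against the mean log2 deviation of 6 cortical neuron markers (axes in log2 units; null red, wild-type blue). Junb follows Fos through both groups (r = 0.979), while both relations of Nr4a2 hang on wild-type array 1 and null array 2.

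Markers of the claustrum and layer 6b and of dopamine neurons, the other cells known for Nr4a2, were also read. For the claustral list 3 of 8 genes had a kept probe and all 3 were higher in null arrays without passing: Gnb4, a G protein subunit, by 0.04 (SE 0.18), Lxn by 0.40 (SE 0.32) and Ctgf, a marker of layer 6b, by 1.07 (SE 0.46). Their mean deviation ran from -0.08 to 0.85 in null and from -0.87 to 0.13 in wild-type arrays. Of the 8 dopamine neuron genes 4 were detected on 0 arrays, among them the dopamine transporter gene Slc6a3 and the lineage factor gene Pitx3. The other 4 had deviations from -0.22 to 0.04 in null and from -0.06 to 0.13 in wild-type arrays, and they went both ways without passing. Th, the enzyme of dopamine synthesis, differed by -0.58 (SE 0.25), the vesicular monoamine transporter gene Slc18a2 by -0.22 (SE 0.19), Ddc, the decarboxylase that follows Th, by -0.09 (SE 0.16) and Aldh1a1, an aldehyde dehydrogenase, by 0.43 (SE 0.17). The part of claustral tissue in the Nr4a2 difference was not tested.

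Other activity-regulated genes gave no uniform picture. Of 34 further rapid genes 18 had a kept probe, 10 lower and 8 higher in null arrays, with a median of -0.09; 0 passed, and at an unadjusted p under 0.05 there were 5 lower and 1 higher. Egr4 differed by -0.71 (SE 0.31) and Per1 by -0.39 (SE 0.22). Npas4, a factor induced by calcium entry, differed by 0.06 (SE 0.25) and Homer1, a postsynaptic scaffold, by -0.09 (SE 0.12). The 3 with the smallest p were Ppp1r15a, which restarts translation after stress, at -0.42 (SE 0.14) with the groups apart, Csrnp1, a nuclear protein gene, at -0.54 (SE 0.20) and the Krüppel-like factor gene Klf6 at 0.54 (SE 0.20). Klf6 read 8.25, 9.14, 8.32 and 8.24 on null arrays, against 7.88, 7.73, 7.93 and 8.25 on wild-type arrays, with its top on null array 2, as for Nr4a2.

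Delayed activity-regulated genes, which follow the first wave, had 12 of 14 kept, 9 lower and 3 higher (median -0.14), with 0 past the threshold and 2 with null below wild-type without overlap. These 2 were the granin-family genes Vgf at -0.63 (SE 0.14) and Scg2 at -0.69 (SE 0.14), both lower in null. Their order over the arrays was less like that of Fos (r of 0.616 and 0.453) than that of the 5 members above. Pdyn, the prodynorphin gene of direct-pathway neurons, differed by -0.80 (SE 0.20), Bdnf by 0.94 (SE 0.37), Nptx2, a secreted pentraxin, by -0.11 (SE 0.22) and Inhba, an activin subunit, by 0.11 (SE 0.15).

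Of the genes upstream, receptors, kinases and promoter-bound factors, 17 of 23 were kept, with 12 lower and 5 higher (median -0.18) and 0 past the threshold. Creb1, which encodes CREB, differed by -0.18 (SE 0.13), Srf, serum response factor, by -0.06 (SE 0.15), Mef2c by 0.19 (SE 0.18), the CREB coactivator gene Crtc1 by 0.04 (SE 0.20) and the acetyltransferase gene Ep300 by -0.26 (SE 0.13). Groups were apart for Camk2a, a calcium-dependent kinase, at 0.38 (SE 0.15), and Ppp1r1b, which encodes the dopamine-regulated phosphatase inhibitor DARPP-32, at -0.43 (SE 0.14).

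Other features of the arrays moved beside these genes. All 12 kept medium spiny neuron markers had negative differences (median -0.25, 0 passed), with null array 2 lowest at -0.47; wild-type array 3, the other array low for Fos, had the highest score, 0.33. Oligodendrocyte markers were higher in 8 of 8 cases (median 0.24, 0 passed), with scores from -0.06 to 0.32 in null and from -0.89 to 0.15 in wild-type arrays; the lowest was wild-type array 3. Endothelial markers were lower in 8 of 8 cases (median -0.16, 0 passed), with scores from -0.24 to 0.07 in null and from -0.02 to 0.19 in wild-type arrays. Of 6 choroid plexus markers 2 were kept, with Ttr at -2.43 (SE 1.31), the lowest difference of all kept probes, and Clic6 at -0.72 (SE 0.22); their scores ran from -2.19 to 2.06 in null and from 0.11 to 1.31 in wild-type arrays. Astrocyte markers had a median of 0.14 with 6 of 8 higher, and microglial markers one of 0.01 with 5 of 8 higher. The part of these cell types in the members' differences was not tested. The mean of 4 Y-linked genes was 8.16, 8.16, 6.12 and 8.14 on null arrays, against 6.00, 7.73, 5.86 and 6.02 on wild-type arrays, so 3 null arrays and 1 wild-type array were high. Among the 4, Eif2s3y read 9.49, 9.29, 4.41 and 9.40 on null arrays, against 4.35, 9.14, 4.32 and 4.40 on wild-type arrays. The sexes were thus split unevenly, and a sex effect and a group effect cannot be fully told apart. With the Y-linked mean as a covariate, a setting chosen after the values were seen, 7 of 8 members were lower. Their differences were smaller, with a median of -0.25 against -0.52 without the covariate. Fos differed by -0.44, Fosb by -0.24, Junb by -0.32, Egr1 by -0.06, Egr2 by -0.26, Arc by -0.11 and Dusp1 by -0.43. Nr4a2 differed by 0.94 (limma adjusted p = 0.70), and Nr4a2 minus the mean of the others was 1.20. Heat shock and handling genes, 5 kept of 8, had mean deviations of -0.12, -0.02, -0.14 and -0.09 on null arrays, against 0.27, 0.08, -0.11 and 0.12 on wild-type arrays. The array with the highest handling score, wild-type array 1, was also the highest for Fos. Null array 3, with the lowest handling score, ranked 3 of 8 from the top for Fos. Null array 2, the lowest for Fos, had the highest handling score of the null arrays. The part of handling in these differences was not tested. Without null array 2 and wild-type array 1, 6 of 8 members were lower, with a median of -0.21. Mean raw intensity ran from 297 to 499 over null and from 295 to 467 over wild-type arrays, and 13009 to 13910 probes were detected per array.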

How the data were processed

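Striatal RNA of 8 samples, 4 null and 4 wild-type, was measured on Illumina bead arrays; groups and replicate numbers come from the sample titles. The deposited table lists, per the file headers, an average bead intensity and its detection p-value for every probe on every array. These intensities are linear and not normalized between arrays. GenomeStudio is named in the submitters' processing notes. The authors' processed intensities, whose derivation no source used here gives, served as an alternative, floored at 16.

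The raw values went through neqc (offset 16, background inferred from the detection p-values) in limma 3.58.1 under R 4.3.3. Probes with a detection p under 0.05 on at least 4 of 8 arrays were kept, 13413 of 25697. Each was fitted as null minus wild-type with lmFit and eBayes, two-sided; p-values were adjusted by Benjamini-Hochberg across the kept probes, and 0.05 was the threshold. Precision is limited by the number of arrays. The fit and the adjustment were tested on simulated log2 values. The normalization, the detection filter, the scores, the covariate fits and the permutation tests were not.

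Members, lists, tests and alternatives were chosen with earlier results of these data known. List genes are represented by their brightest kept probe, with older symbols matched through the RefSeq table, and a score is the mean deviation from each gene's 8-array mean. Genes named were all members, the first 4 kept genes of each functional list described and its 3 with the smallest p, and the 5 genes most correlated with Fos and with Nr4a2. Others named were picked after their values were seen. Correlations used exact permutation tests, two-sided, over 8 relations chosen after the values were seen. 18 alternatives were fitted. The deviations of same-numbered arrays had low correlations (-0.004 to 0.23), so numbers were not treated as pairs.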

Additional observations from a re-analysis of the deposited data

How the results depend on the processing

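Under 18 alternatives 0 probes, and so 0 members, passed the threshold in any. The members' median stayed negative in all 18, and in the 10 that did not leave out a single array it ran from -0.65 (the authors' processed values) to -0.21 (null array 2 and wild-type array 1 left out together). The number lower was 6 to 9, the 9 being of 12 probes without a detection filter. Leaving out 1 array each time gave 7 of 8 lower throughout, a median from -0.88 (without wild-type array 3) to -0.39 (without wild-type array 1), and Nr4a2 minus the others from 1.13 to 2.20. Fos ranged from -1.19 to -0.46, Egr2 from -1.37 to -0.49, Egr1 from -0.32 to -0.08 and Arc from -0.99 to -0.14, each lowest without wild-type array 3. The difference in Arc was the only member value to turn its sign, to 0.10 with both those arrays left out; the cause was not tested. Nr4a2 stayed higher in null, from 0.39 (cortical score as a covariate) to 1.56 (without null array 1). With the replicate number as a block, the median was -0.52 and 0 members passed. Nr4a2 then differed by 1.26 (SE 0.21, against 0.48 without the block, limma adjusted p = 0.518). No call changed. Without background correction the Nr4a2 difference was 0.71 and that of Fosb -0.17; these are the 2 members with a detection p above 0 on some array. A fit with chip position as a block was not run, because each group has its own run of positions. With 4 arrays a group the median standard error of a member was 0.38, so differences of the size seen were not detectable for most members at this spread.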
